A study of Mus musculus with 6 samples.

Results

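The primary cilium is a single antenna-like projection of the cell membrane, built on a basal body, and vertebrate Hedgehog signalling runs through it. Intraflagellar transport (IFT) trains carry cargo along it: the IFT-B complex with a kinesin motor moves towards the tip, and the IFT-A complex with a dynein motor returns. The BBSome, a coat of Bardet-Biedl syndrome proteins, moves membrane receptors in and out, and the transition zone at the base acts as a gate. In liver, cholangiocytes, the cells that line bile ducts, carry a primary cilium, whereas hepatocytes generally lack one.

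A list of 38 such genes was taken by symbol from the 43346 genes of the deposited table, and each symbol matched 1 row. The list holds 11 IFT-B genes, 6 IFT-A genes, 4 motor subunits, 8 genes of the BBSome with its partners, 4 genes of the ciliary membrane, 3 Hedgehog regulators (Kif7, Evc and Evc2) and 2 transition zone genes.

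RNA was sequenced from 3 Gli1 KO and 3 Gli1 WT liver tumours, numbered as replicates 1 to 3 of each genotype. GLI1 is a transcription factor that Hedgehog signalling activates. Both groups consist of tumours raised with the liver carcinogen diethylnitrosamine (DEN) in the mouse line Sulf2-TTR, which overexpresses SULF2, a sulfatase of heparan sulfate chains, so no group here lacks the transgene or the carcinogen. The labels give neither the age of the mice, nor what drives the transgene, nor which part of Gli1 was deleted, nor how many animals the tumours represent. The p-values therefore measure only the spread between these tumours, some of which may come from the same animal.

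Libraries held 75205624 to 132979502 counted reads, of which 16863 to 28567 fell on the 38 genes. Gli1 itself had 4, 3 and 3 reads in KO replicates 1, 2 and 3, against 10, 20 and 7 in the WT replicates. All KO libraries were below all WT libraries, in the direction of the labels. These counts are low in WT as well, and Gli1 did not pass the filter on low counts, so it was not among the genes tested. Sulf2 ranged from 2.63 to 164 normalized CPM (counts per unit of library size after scaling) in KO and from 5.33 to 76.4 in WT. The hepatocyte marker Alb, the gene for albumin, had at least 114643 normalized CPM in every tumour. KO replicate 1 and WT replicate 3 stood apart from the other libraries on the first principal component of all genes tested, at -65.2 and -80.9 against 6.95 to 67.9, so that axis did not separate the genotypes. Markers of other cells differed in summed level: endothelial markers had 128 to 172 normalized CPM in KO and 185 to 232 in WT, and leukocyte markers 37.0 to 60.7 in KO and 55.0 to 135 in WT, with all 8 leukocyte markers lower in KO. In the other direction, 9 of 10 stellate cell and fibroblast markers and 7 of 8 cell cycle genes were higher in KO. Over all genes tested, 48.2% were higher and 51.8% lower in KO. Summed cell cycle genes overlapped, at 30.4 to 133 normalized CPM in KO and 25.0 to 63.3 in WT. Of the hepatocyte markers 6 of 7 were lower in KO, and their sums also overlapped, at 133758 to 154056 in KO and 149240 to 190892 in WT. The part of any of these in the values of the cilium genes was not tested.

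All 38 genes were detected in every library, with 8 to 3200 reads per gene and library, and all passed the filter on low counts. Per kilobase they were expressed at low levels for this tissue. The median of their mean deposited RPKM (reads scaled by gene length and library total, over the 6 libraries) was 0.805, against 2.01 over the 18359 genes tested, and 13 of 38 reached a mean RPKM of 1, against 64.0% of genes tested.

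Ift20, an IFT-B subunit that also sits at the Golgi, had the highest level. Its RPKM was 19.4, 13.5 and 16.1 in KO replicates 1, 2 and 3, against 18.03, 14.2 and 14.0 in the WT replicates. The next by mean RPKM were the IFT-B core subunit Ift52 (5.998), the small GTPase Ift27 (4.54), the ciliary phosphoinositide phosphatase Inpp5e (4.52), Ift46 (3.11) and the kinesin subunit Kif3b (2.64). Ift52 ranged from 4.47 to 7.09 RPKM over the libraries, Ift27 from 3.59 to 5.71 and Inpp5e from 2.67 to 5.28, so these 3 neighbours in the order overlapped.

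Gpr161, a ciliary receptor that restrains the Hedgehog pathway, was lowest with a mean of 0.0371 RPKM. Above it lay Kif7, a kinesin of the cilium tip that regulates GLI proteins, at 0.104 RPKM, the IFT-A subunit Ttc21b at 0.127 RPKM and the heavy chain of the ciliary dynein, Dync2h1, at 0.201 RPKM. The ranges of Kif7 (0.0805 to 0.133 RPKM) and Ttc21b (0.0643 to 0.206 RPKM) overlapped, and the highest Gpr161 library, KO replicate 1 at 0.0824 RPKM, reached into the Kif7 range.

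**Figure D1:**
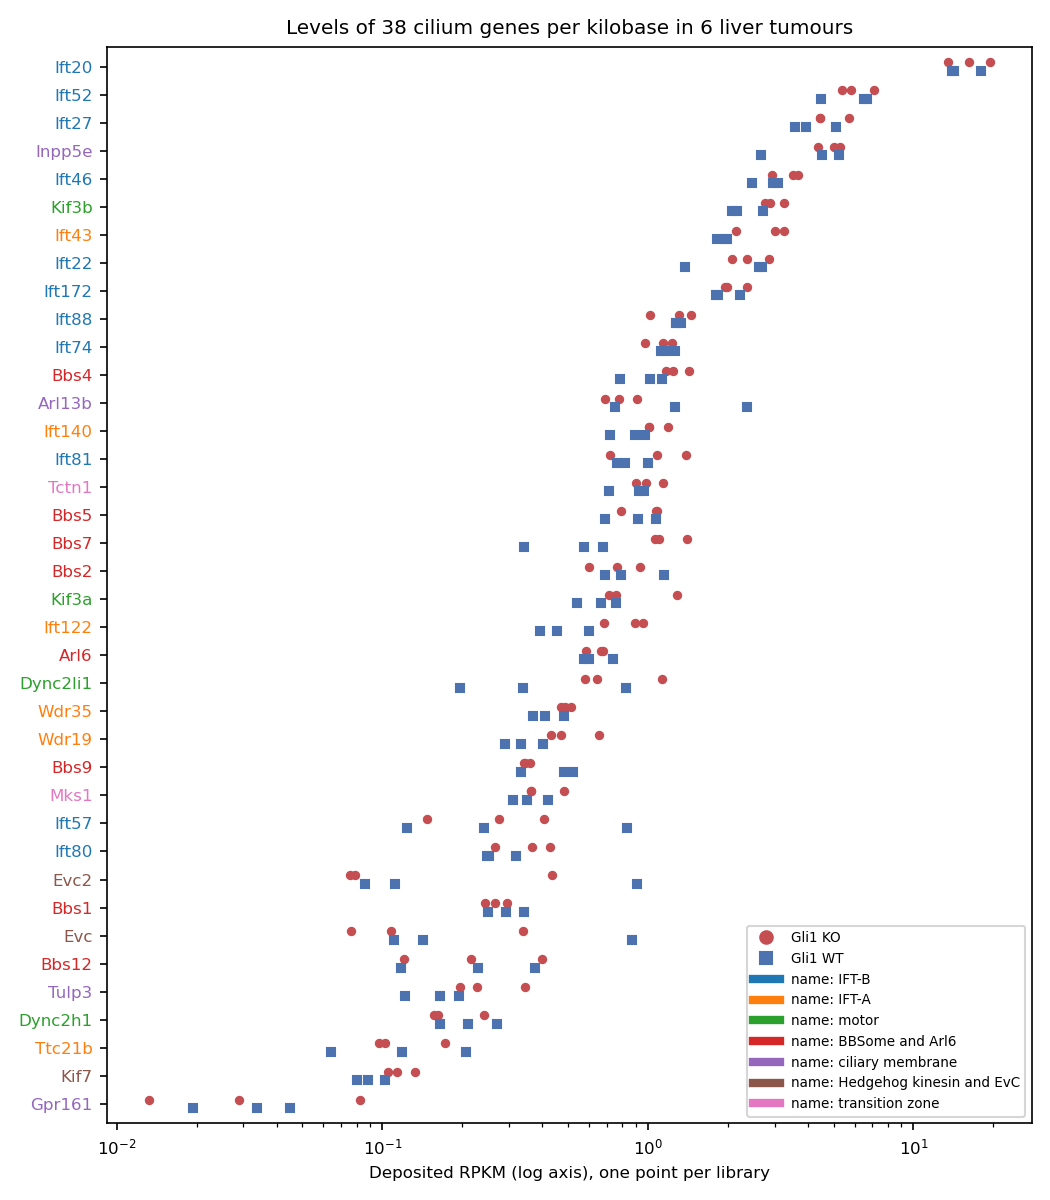
Deposited RPKM of the 38 cilium genes on a log axis, with 1 point per library, circles for Gli1 KO and squares for Gli1 WT. Genes run down the page by mean RPKM, from Ift20 at 15.9 to Gpr161 at 0.0371, and the colour of a name gives its role.

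The comparison asks whether loss of Gli1, at the far end of the Hedgehog pathway, goes with a different level of the machinery through which that pathway signals. Of the 38 cilium genes, 0 passed an FDR of 0.05 between KO and WT tumours by the edgeR quasi-likelihood method, and 0 of all 18359 genes (0%) did. The smallest FDR among the 38 genes was 0.9997. By DESeq2, 0 of the 38 passed an adjusted p of 0.05, where 64 genes, or 0.352% of those with an adjusted p, did. At an unadjusted p under 0.05 DESeq2 gave 4 of the 38 (10.5%), Bbs7, Arl13b, Bbs9 and Ift122, against 5.13% of the 18237 genes that passed the same low-count filter and had a DESeq2 p.

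At an unadjusted edgeR p under 0.05 there were 2 cilium genes, Bbs7 and Arl13b, which is 5.26% of the list against 3.62% of all genes tested. Bbs7 was higher in KO, as were 1.6% of all genes at that p, and Arl13b lower, as were 2.02%. The genotypes did not overlap for 4 of 38 genes, Bbs7 and Ift122 higher in KO and Ift74 and Bbs9 lower in KO. That is 10.5% of the list against 8.11% of all genes tested, of which 4.15% were higher and 3.96% lower in KO. Of the 38 log2 fold changes (KO minus WT), 17 were above 0 and 21 below, against 48.2% and 51.8% of all genes, and the median was -0.03, against -0.01 over all genes. These shares of the list were close to those of all genes.

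The estimates were narrow enough to limit the size of a difference for many of the genes. For 22 of 38 the 95% interval of the log2 fold change lay inside -1 to 1, so a 2-fold difference in either direction was outside it. For the other 16 the interval reached -1 or 1. The median standard error was 0.28 on the log2 scale, against 0.33 over all genes tested. In bulk tissue, fewer cells of a type and less RNA per cell cannot be told apart.

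**Figure D2:**
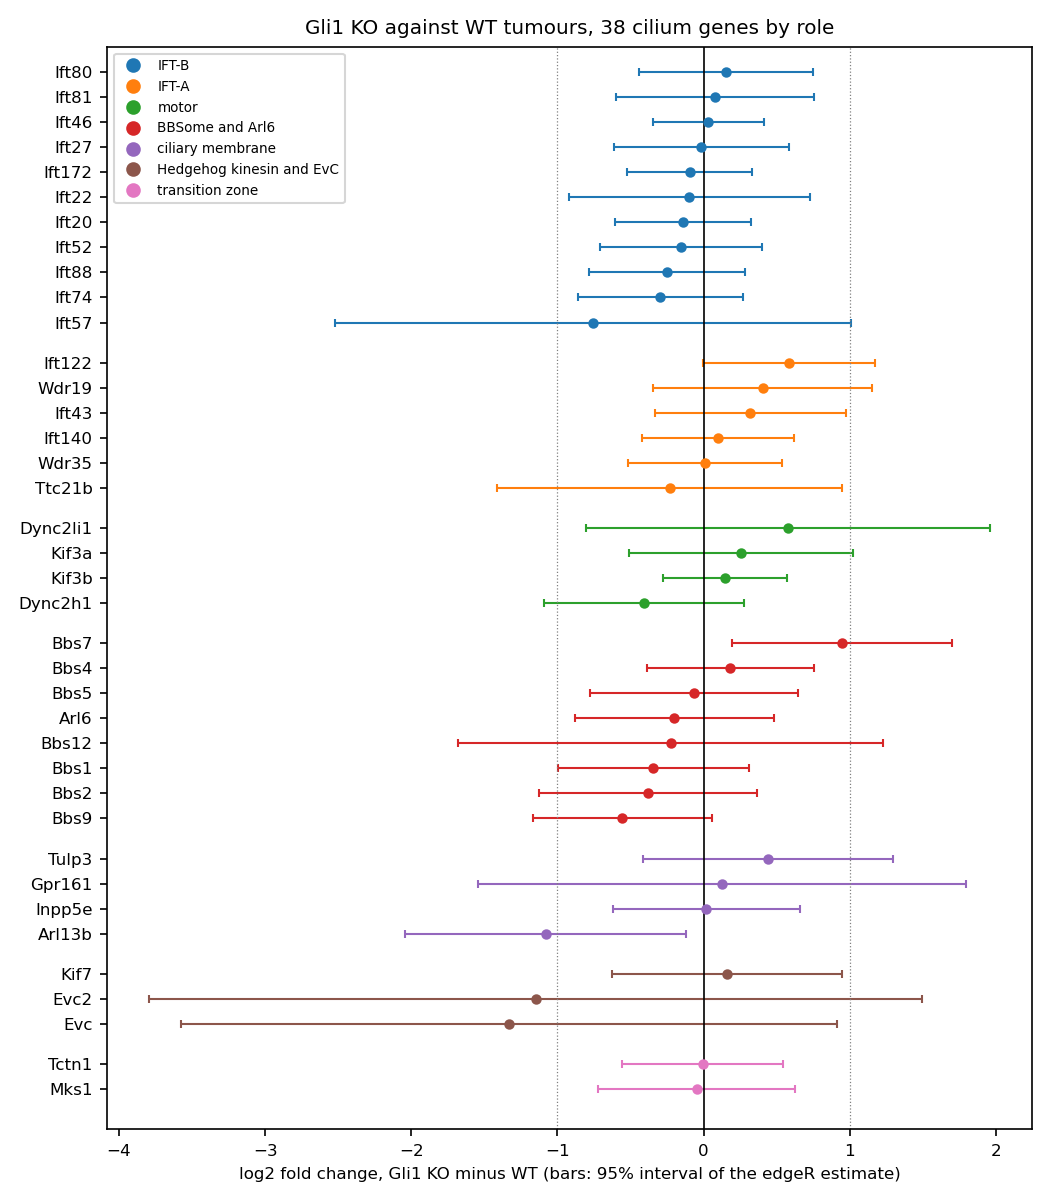
The log2 fold change of each cilium gene, Gli1 KO minus WT, with its 95% interval from the edgeR fit, grouped by role. The zero line crosses every interval except those of Bbs7, at 0.95, and Arl13b, at -1.08, and the dotted lines mark -1 and 1.

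The IFT-B genes, which build the outward trains, differed little between genotypes. Of 11, 0 passed FDR 0.05 or an unadjusted p under 0.05, and 8 were lower and 3 higher in KO, with a median log2 fold change of -0.10. Ift74, which with Ift81 binds tubulin cargo, had the smallest p of the group. It had 3.36, 3.41 and 2.71 normalized CPM in KO replicates 1, 2 and 3, against 4.37, 3.63 and 3.64 in the WT replicates. All KO libraries lay below all WT libraries, by a small margin, and the difference was -0.30 ± 0.24 on the log2 scale (SE of the edgeR fit, FDR 0.9997).

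Ift20 had 30.4, 23.2 and 25.7 normalized CPM in KO, against 35.8, 25.5 and 26.0 in WT. The groups overlapped, and the log2 fold change was -0.14 ± 0.20 with a 95% interval of -0.61 to 0.33. Ift88, whose loss in mice abolishes cilia, averaged 6.24 ± 1.33 normalized CPM in KO and 7.41 ± 0.58 in WT (SD, n = 3 each), a log2 fold change of -0.25 with an interval of -0.78 to 0.29. Ift46 and Ift172 were as close, with log2 fold changes of 0.03 and -0.10. Only Ift57, a subunit of the outer part of the complex, had a difference larger than 0.30 in size, at -0.76, and its interval of -2.53 to 1.01 was the widest of the group.

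Of the 6 IFT-A genes, 5 had positive log2 fold changes, with a median of 0.21, and 0 passed FDR 0.05 or an unadjusted p under 0.05. Ift122, a core subunit of the return trains, had 7.29, 6.11 and 8.0 normalized CPM in KO replicates 1, 2 and 3, against 4.72, 3.70 and 5.85 in the WT replicates. The lowest KO library was just above the highest WT library. The log2 fold change reached 0.58 ± 0.25 (SE), with an unadjusted edgeR p of 0.0512 and an FDR of 0.9997. Ift140, another core subunit, had a log2 fold change of 0.10 ± 0.22. Wdr35, of the outer part, was nearly the same in all 6 tumours, at 3.28 to 4.15 normalized CPM.

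The motors gave 3 positive and 1 negative log2 fold change. Kif3a and Kif3b, the motor subunits of the outward kinesin, had 0.26 ± 0.32 and 0.15 ± 0.18. Dync2h1 had the smallest p of the group, with 2.59, 2.96 and 4.08 normalized CPM in KO replicates 1, 2 and 3, against 3.46, 5.17 and 4.16 in the WT replicates. The groups overlapped (log2 fold change -0.41 ± 0.29, edgeR FDR 0.9997). Dync2li1, the light intermediate chain of the same dynein, had 1.54, 0.87 and 0.89 normalized CPM in KO, against 0.34, 0.53 and 1.34 in WT. Its 2 highest libraries were KO replicate 1 and WT replicate 3, and its log2 fold change of 0.58 ± 0.58 was 1.34 without WT replicate 3.

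Of the BBSome genes and their partners, 2 had positive and 6 negative log2 fold changes, with a median of -0.21. Bbs7, one of the propeller-shaped subunits of the coat, had the smallest p of the 38 genes (ENSMUSG00000037325, minus strand of chromosome 3, 36573142 to 36613477 in GRCm38). It had 5.70, 4.91 and 4.42 normalized CPM in KO replicates 1, 2 and 3, against 2.97, 3.17 and 1.65 in the WT replicates. Every KO library was above every WT library, and WT replicate 3 was lowest. Its log2 fold change of 0.95 ± 0.32 (SE, 95% interval 0.20 to 1.70) had an unadjusted edgeR p of 0.0208 that ranked 251 among 18359 genes (FDR 0.9997). By DESeq2 the unadjusted p was 0.00592 and the adjusted p 0.421. The log2 fold change ranged from 0.71 without WT replicate 3 to 1.12 without WT replicate 2.

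Bbs9, a scaffold subunit of the same coat, went the opposite way. It had 2.19, 2.42 and 2.35 normalized CPM in KO, against 2.72, 3.86 and 3.68 in WT, with no overlap (log2 fold change -0.56 ± 0.26, edgeR FDR 0.9997). Bbs1 and Bbs2, also subunits, had -0.35 ± 0.27 and -0.38 ± 0.31, and Bbs4 and Bbs5 had 0.18 ± 0.24 and -0.07 ± 0.30. Arl6, the small GTPase that recruits the coat to membranes, had -0.20 ± 0.28. Bbs12, related to chaperonins and needed to assemble the coat, varied 3.59-fold between tumours (-0.23 ± 0.61). The signs of the subunits were mixed.

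Bbs7 was also 1 of 3 cilium genes whose promoter held an X-box, the palindromic site of RFX factors, which control many cilium genes. The window searched ran from 250 bases before to 50 after the start of the gene in RefSeq (GRCm38.p6), and 34 of the 38 genes had one. The X-box was searched as GTTNCC, any 2 bases and GGNAAC, which reads the same on both strands. It occurred at 3 of 34 genes (8.82%), against 0.529% of the 27025 genes with such a window. The matches are in capitals with up to 8 bases on either side, 5′ to 3′ on the strand of the gene:
Bbs7: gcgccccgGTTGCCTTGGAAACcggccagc
Mks1: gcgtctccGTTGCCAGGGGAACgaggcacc
Tctn1: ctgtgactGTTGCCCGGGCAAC
They lie at chr3:36613489-36613518 (minus strand), chr11:87853183-87853212 (plus strand) and chr5:122264411-122264432 (minus strand). The Bbs7 and Mks1 matches begin 121 and 24 bases before the RefSeq start. The Tctn1 match lies after the start, at the end of the window. A letter match is not a measured binding site.
Mks1 and Tctn1, both transition zone genes, were among the least different between genotypes. Mks1 had 1.501, 1.66 and 2.05 normalized CPM in KO, against 1.64, 2.01 and 1.73 in WT (log2 fold change -0.05 ± 0.28). Tctn1 averaged 5.21 ± 0.56 in KO and 5.23 ± 0.95 in WT (SD, n = 3 each), a log2 fold change of -0.004 with an interval of -0.55 to 0.55.

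The GLI consensus GACCACCCA was searched in the same windows on both strands (TGGGTGGTC on the other). It was found at 0 of 34 cilium genes and at 0.289% of all genes, and with any base at 1 inner place (GACCNCCCA) at 0 of 34 and 1.14%. No match says only that these letters are not in this window.

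Among the genes of the ciliary membrane, Arl13b, a small GTPase needed for the shape of the cilium and for Hedgehog output, had the only other unadjusted p under 0.05 (ENSMUSG00000022911, chromosome 16, 62793685 to 62847040). It had 4.07, 3.95 and 4.84 normalized CPM in KO replicates 1, 2 and 3, against 8.35, 14.2 and 4.65 in the WT replicates. KO tumours were alike, WT tumours were spread from 4.65 to 14.2, and WT replicate 3 lay within the KO range. Its log2 fold change of -1.08 ± 0.40 (SE) had an unadjusted edgeR p of 0.0328 and an FDR of 0.9997. Without WT replicate 2, the highest library, it was -0.60, and without WT replicate 3 it was -1.39 (FDR 0.415).

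Inpp5e, which sets the lipid make-up of the ciliary membrane, averaged 22.4 ± 1.05 normalized CPM in KO and 22.1 ± 7.70 in WT (SD, n = 3 each). Tulp3, which carries receptors such as Gpr161 into the cilium with IFT-A, had a log2 fold change of 0.44 ± 0.36. Gpr161 had 0.59, 0.23 and 0.10 normalized CPM in KO, against 0.18, 0.28 and 0.38 in WT. The groups overlapped (0.13 ± 0.70), and at 8 to 62 reads per library the interval of -1.54 to 1.80 held 2-fold differences in both directions.

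**Figure D3:**
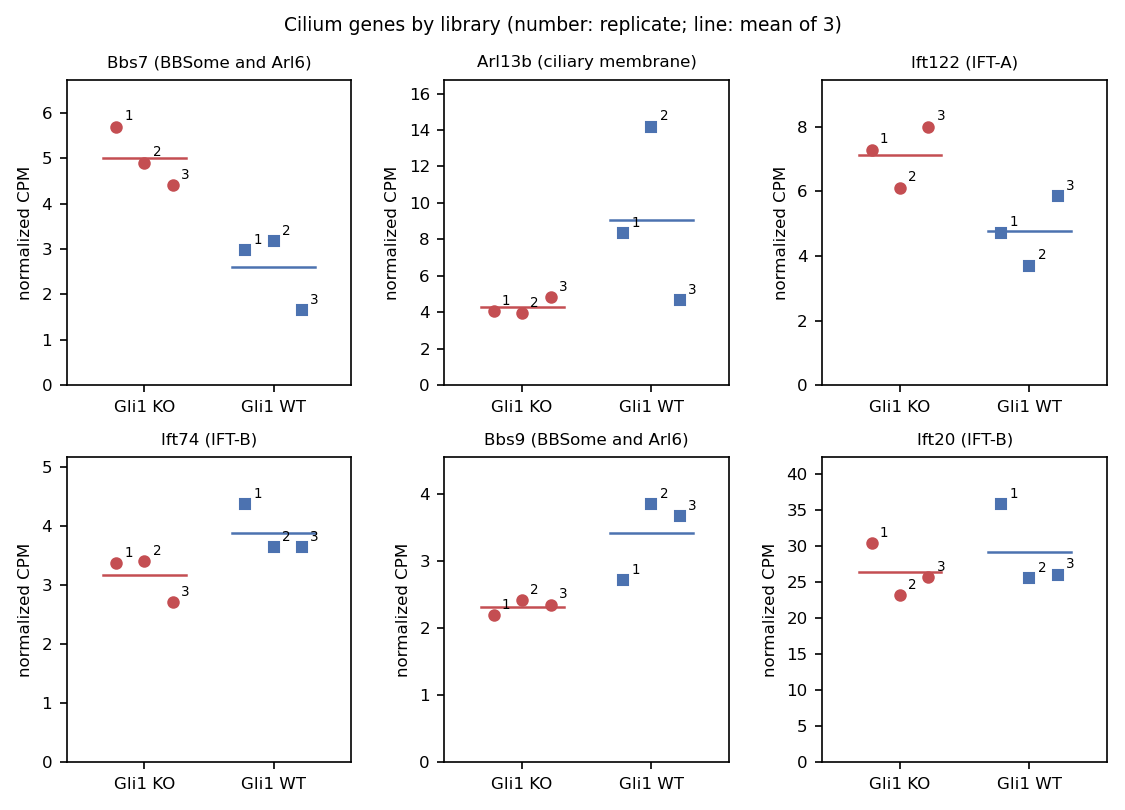
Normalized CPM of 6 cilium genes in each library, Gli1 KO left of Gli1 WT, with the replicate number beside each point and a line at the mean of 3. Bbs7 and Ift122 lie higher and Ift74 and Bbs9 lower in KO without overlap, Arl13b overlaps through WT replicate 3 at 4.65, and Ift20 overlaps.

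The widest spread within a genotype was that of Evc and Evc2. Evc and Evc2 form a complex that binds Smoothened, the Hedgehog signal transducer, near the base of the cilium, and is needed for full pathway output. Evc had 2.68, 0.93 and 0.62 normalized CPM in KO replicates 1, 2 and 3, against 1.43, 1.00 and 8.21 in the WT replicates. Evc2 had 2.60, 0.50 and 0.48 normalized CPM in KO, against 0.85, 0.59 and 6.497 in WT. Both genes were highest in WT replicate 3 and next in KO replicate 1, and the genotypes overlapped.

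Their log2 fold changes did not pass (Evc -1.33 ± 0.94 and Evc2 -1.15 ± 1.11, edgeR FDR 0.9997 each). They were 0.21 and 0.72 without WT replicate 3, -2.18 and -2.42 without KO replicate 1, and -0.64 and -0.56 without both. The spread within a genotype, as a pooled SD of log2 CPM, was 1.37 for Evc and 1.62 for Evc2, the 2 largest of the list, against a median of 0.29 for the 38 genes and 0.38 for all genes tested. Kif7, the third Hedgehog regulator of the list, had one of the smallest spreads, 0.14, with 0.54 to 0.63 normalized CPM in KO and 0.45 to 0.55 in WT (log2 fold change 0.16 ± 0.33).

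Evc and Evc2 are neighbours that point away from each other on chromosome 5. Evc runs on the minus strand from 37336894 down to 37289098, Evc2 on the plus strand from 37338499 to 37425055, and 1604 bases separate their starts. The bases upstream of each start, from the RefSeq promoter table (GRCm38.p6), are shown because the 2 genes had the same 2 highest tumours. Capitals mark the longest run of letters common to both windows, found after the values were seen:
Evc: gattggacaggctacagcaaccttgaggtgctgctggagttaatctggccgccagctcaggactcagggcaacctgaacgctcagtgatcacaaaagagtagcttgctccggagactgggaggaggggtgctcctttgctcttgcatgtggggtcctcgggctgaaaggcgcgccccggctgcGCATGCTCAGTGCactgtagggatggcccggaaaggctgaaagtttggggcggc
Evc2: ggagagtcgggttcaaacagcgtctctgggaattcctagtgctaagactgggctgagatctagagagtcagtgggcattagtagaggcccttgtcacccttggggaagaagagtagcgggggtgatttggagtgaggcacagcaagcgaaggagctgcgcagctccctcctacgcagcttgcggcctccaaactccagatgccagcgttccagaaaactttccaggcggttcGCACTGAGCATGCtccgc
The windows are chr5:37336895-37337131 (minus strand) and chr5:37338228-37338477 (plus strand). The run of 13 bases reads GCATGCTCAGTGC in the Evc window and as its reverse complement, GCACTGAGCATGC, in the Evc2 window, and in either form it occurred at 10 of 27025 genes (0.037%). It is described as letters only.

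A further 4 cilium genes had the same 2 highest libraries as the Evc pair, WT replicate 3 and KO replicate 1. They were Ift57, Ift81, Dync2li1 and Gpr161, which makes 6 of 38 (15.8%), against 15% of all genes tested, a share near the background. Ift57 had 1.197, 0.47 and 0.82 normalized CPM in KO replicates 1, 2 and 3, against 0.46, 0.82 and 2.92 in the WT replicates, and its log2 fold change of -0.76 was 0.37 without WT replicate 3. Its highest value, like those of the Evc pair, was in 1 WT tumour, and the genotypes overlapped.

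Most tested markers of bile duct cells had the same 2 highest tumours. Of 11 cholangiocyte markers, 9 were tested, and 7 of these 9 had WT replicate 3 and KO replicate 1 as their 2 highest libraries. The keratin Krt19 had 1.22, 0.68 and 0.23 normalized CPM in KO, against 0.20, 0.44 and 3.04 in WT. The adhesion protein Epcam had 3.28, 1.10 and 0.21 in KO, against 0.70, 0.75 and 4.29 in WT. Summed over the 11 markers, KO replicates 1, 2 and 3 had 451, 93.0 and 487 normalized CPM. The WT replicates had 102, 52.6 and 496. KO replicate 3, where Evc and Evc2 were lowest, had a higher sum than KO replicate 1. Spp1 alone was at 67.9 to 465 in KO and 28.8 to 457 in WT. Its 465 in KO replicate 3 made up most of the sum of 487 there. Its 457 in WT replicate 3 likewise made up most of 496, so the sums mainly follow Spp1. Krt19 and Epcam were low in KO replicate 3, at 0.23 and 0.21. Cftr and Cldn4 were at 0 in KO replicate 3. Among stellate cell and fibroblast markers, 4 of 10 had the same 2 highest libraries, with summed levels of 309 to 730 in KO and 138 to 446 in WT. The part of these cells in the Evc and Evc2 values was not tested.

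**Figure D4:**
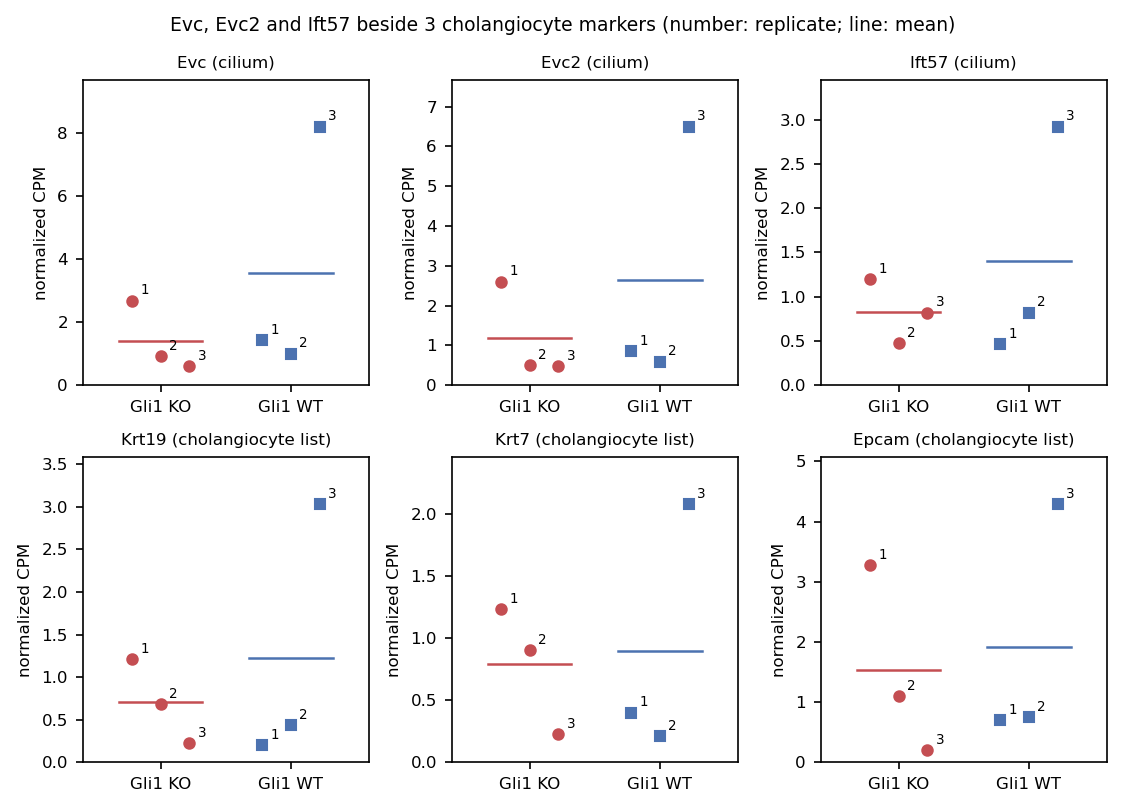
Normalized CPM of Evc, Evc2 and Ift57 in the upper row and of 3 cholangiocyte markers in the lower row, Gli1 KO left of Gli1 WT, with replicate numbers and a line at the mean of 3. WT replicate 3 is highest and KO replicate 1 next in all 6 panels. The 3 markers are among the 6 of 9 tested cholangiocyte markers with that order.

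For 22 of 38 genes the highest library was less than 2-fold above the lowest, for 16 it was more, and for 5 of these over 4-fold. The median ratio over the 38 genes was 1.69. Wdr35, Ift46 and Ift172 varied least. No tumour was high throughout: WT replicate 1 was the highest library for 10 genes and WT replicate 3 for 4, while WT replicate 3 was the lowest for 12. The 4 genes highest in WT replicate 3 are 10.5% of the list, against 22.2% of all genes tested. Summed over the 38 genes, KO libraries had 207 to 218 normalized CPM and WT libraries 206 to 240. Of that sum IFT-B genes made up 101 to 106 in KO and 99.2 to 125 in WT.

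**Figure D5:**
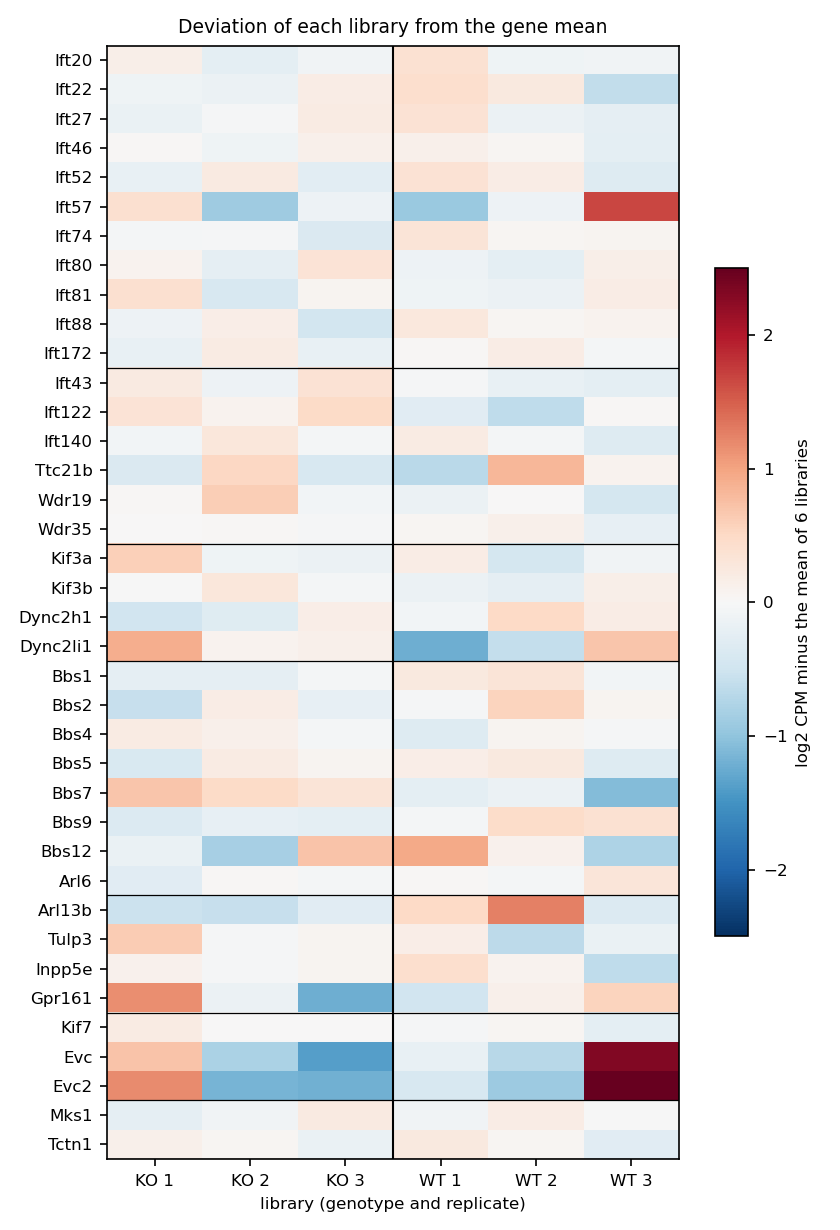
Deviation of each library from the mean log2 CPM of the gene over 6 libraries, for the 38 cilium genes by role, Gli1 KO libraries left of the vertical line and Gli1 WT libraries right of it. Evc, Evc2 and Ift57 in WT replicate 3 are the darkest cells, and most other cells are pale.

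Some of these values carry a limit from the counting. Exons of 8 of the 38 genes overlap those of another gene on the opposite strand in GENCODE M21, and no source used here states a strand for the counting, so reads of such a pair cannot be told apart. They are Ift57, Ift88, Bbs4, Bbs12, Arl6, Inpp5e, Kif7 and Tctn1. The longest overlaps with a coding gene are those of Tctn1 with Hvcn1 (1574 bases) and Inpp5e with Pmpca (874 bases). Bbs7, Arl13b, Ift122, Evc and Evc2 have no such overlap.

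Other genes tied to cilia, outside the list of 38, were tested in the same fit. The 71 listed include 12 genes of motile cilia and 6 RFX factors, which are also described further below. Of the 71, 62 were tested and 0 passed FDR 0.05. Their log2 fold changes were 34 positive and 28 negative, against 48.2% and 51.8% of all genes, with a median of 0.03. An edgeR unadjusted p under 0.05 was reached by 1 gene, against 3.62% of all genes tested. That gene was Hspb11, the IFT-B subunit IFT25, with 4.10, 5.39 and 5.03 normalized CPM in KO, against 3.42, 3.55 and 2.83 in WT (log2 fold change 0.57 ± 0.23, edgeR FDR 0.9997). Its partner in the complex, Ift27, averaged 5.24 ± 0.73 in KO and 5.29 ± 1.26 in WT (SD, n = 3 each), a log2 fold change of -0.01.

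Of 15 further transition zone genes tested, 7 were positive and 8 negative, and Iqcb1 had the smallest p, at -0.78 ± 0.34 (edgeR FDR 0.9997). The 15 genes of ciliogenesis and the basal body had a median of 0.01, and the 5 further BBSome genes a median of 0.13. The polycystins Pkd1 and Pkd2, the channel proteins of the cilium whose human counterparts are mutated in polycystic kidney and liver disease, had log2 fold changes of 0.01 ± 0.16 and 0.08 ± 0.27. Pkhd1, the gene of recessive polycystic disease, had 15.3, 6.14 and 7.61 normalized CPM in KO, against 4.80, 3.82 and 11.7 in WT, with KO replicate 1 and WT replicate 3 highest.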

How the data were processed

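Each gene and library has a deposited raw read count and, beside it, an RPKM value that the authors scaled by a gene length given in the table. The tools named are TopHat2 2.0.6, HTSeq and bcl2fastq, and the builds named are the human GRCh37 and hg19, per the submitters' processing notes. The identifiers are mouse Ensembl identifiers, and 84.2% of the 42462 shared with GENCODE M21 have its GRCm38 start, so coordinates are read as GRCm38. The length was within 10% of the GENCODE exon length for 23 of the 38 genes. The library totals behind the RPKM values lay 12.6 to 19.0% above the summed counts. RPKM was used only to order genes by level and to set their levels beside those of all genes tested. Both uses rest on the deposited lengths.

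Libraries were grouped by the genotype in their titles. The test on deposited counts was that of edgeR 4.0.16 under R 4.3.3 (filterByExpr, TMM factors, robust quasi-likelihood test, two-sided) and adjusted by Benjamini-Hochberg over the 18359 genes kept, at FDR 0.05. Standard errors are the size of the log2 fold change over the root of F, so intervals are approximate. The smallest p that an exact permutation of 3 against 3 allows is 0.1. DESeq2 1.42.0 and limma 3.58.1 were alternatives. The tests were tried on simulated counts. Genes described in full were those with an unadjusted p under 0.05, the smallest p of each role, and the highest and lowest mean RPKM. Bbs9, Ift57, Dync2li1, Evc2, Hspb11, Iqcb1 and other single genes were added after their values were seen. The gene list, its roles and the marker lists were chosen with earlier results of these data known. Of the 122 symbols in the other cilium and marker lists, 2 had no match, 118 were found by symbol and 2 by identifier.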

Additional observations from a re-analysis of the deposited data

How the results depend on the processing

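No cilium gene passed FDR 0.05 under any alternative run: other scaling factors (RLE, upper quartile), limma voom, DESeq2, all genes without a filter, a stricter filter at 1 CPM (32 of the 38 genes kept), a block on the replicate number, a term for sample description numbers under 2000, the fit without robust priors, scaling without the 10 most counted genes, FDR 0.1, and leaving out each library. Over all genes, edgeR called 0 (665 at an unadjusted p under 0.05), limma voom 0 and DESeq2 64. The count of cilium genes at an unadjusted p under 0.05 was 2, with 3.62% of all genes tested. It was 4 by DESeq2 (5.13% of genes past the same filter), 1 by limma voom (3.48% of genes) and 1 with the number covariate (2.47%). Without 1 library it was 0 to 4, with 2.66 to 9.47% of genes, and the count of 4, without WT replicate 3, went with the 9.47%. With the replicate block it was 1 (2.73%). Same-numbered libraries did not deviate together from their genotype means (correlations -0.29, 0.18 and -0.34), and the numbers were not read as pairs. With means of 3 libraries this check cannot exclude pairs. The sample description numbers are close for replicates 1 (WT 1759, KO 1767) and 2 (WT 4204, KO 4206). The genotypes did not overlap for 4 genes, and for 6 to 10 without 1 library, where 14.7 to 28.0% of all genes did not overlap. The count of 10 and the 28.0% both came without WT replicate 3. Fewer libraries overlap less often, and the part of this in these shares was not tested. The median log2 fold change of the list ran from -0.076 to 0.037 without 1 library.

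Without 1 library, Evc ran from -2.18 to 0.21, Gpr161 from -0.76 to 0.54, Mks1 from -0.18 to 0.057 and Ift20 from -0.24 to 0.039. Gpr161 was -0.14 by limma voom and -0.15 with the replicate block, and the cause was not tested. Leaving out both libraries that stood apart, KO replicate 1 and WT replicate 3, was added after seeing the data. It gave 13 genes without overlap (36.5% of all genes), 2 with an unadjusted p under 0.05 (6.84% of all genes), 0.029 for Mks1, -0.46 for Gpr161 and 0.61 for Bbs7. Low counts limit Gpr161, with 8 to 62 reads per library.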

Other observations

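Motile cilia beat, and their genes are distinct from those of the primary cilium. Of 12 such genes listed, 6 were tested and 0 passed FDR 0.05 in edgeR's test. Hydin, a protein of the central pair of motile cilia, had 8.18, 0.32 and 0.47 normalized CPM in KO replicates 1, 2 and 3, against 0.14, 0.28 and 1.80 in the WT replicates. KO replicate 1 was highest and WT replicate 3 next, and the groups overlapped (log2 fold change 2.01 ± 1.48, edgeR FDR 0.9997). Foxj1, the factor that switches on motile cilium genes, had 1.15, 0.40 and 0.31 in KO, against 0.19, 0.13 and 1.27 in WT, with the same 2 libraries highest. Mcidas, which acts at the start of multiciliated cell formation, had 0 normalized CPM in every library.

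Of 6 RFX factors, 0 passed. Rfx3 had 3.54, 2.61 and 2.74 normalized CPM in KO, against 1.99, 2.27 and 2.01 in WT, without overlap (log2 fold change 0.50 ± 0.26, edgeR FDR 0.9997). Rfx4 had 0.32, 0.47 and 0.33 in KO, against 1.603, 1.94 and 0 in WT, so its WT tumours spanned the whole range.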
